A study of Mus musculus with 4 samples.

Results

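CpG-poor promoters are described here as they appeared in chromatin accessibility data of mouse primary myoblasts. They were defined as ATAC-seq peaks whose centre lay from 1000 bp upstream to 100 bp downstream of a protein-coding transcription start. The 500 bp around the centre had to hold less than 55% GC, or a CpG observed/expected ratio under 0.6, which is the number of CpG dinucleotides divided by the number that the base content predicts. Promoters with a protein-coding start on the opposite strand within 1000 bp were left out. The rule found 1607 of the 25775 WT peaks and 305 of the 3836 Tet2 KO peaks, or 1912 of 29611 peaks in both lists. The WT peaks lay at 1513 genes and the Tet2 KO peaks at 295 genes. The cells were myoblasts grown for 3 days from satellite cells that were sorted from hindlimb skeletal muscle of C57BL/6 mice. WT mice were compared with Tet2 KO mice, which lack exon 3 of Tet2 in all cells and at all ages, and the methods give males of 8 to 10 weeks unless stated otherwise. GEO holds 2 WT and 2 Tet2 KO samples, with 5000 cells in each library, and 1 peak list of each genotype was analysed. As a genotype had 1 list, no test between genotypes was possible, and intervals below cover counting error only.

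ATAC-seq marks open chromatin by the sites where a transposase can insert adapters. Most mammalian promoters lie in CpG islands, which are usually unmethylated and open in many tissues. Promoters with few CpGs often belong to genes of a single tissue, such as those of the sarcomere in muscle, and their remaining CpGs can be methylated where the gene is silent. Tet2 oxidises 5-methylcytosine, a step of DNA demethylation. Myogenic factors such as MyoD bind E boxes, and many muscle promoters hold them.

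The promoters of 9 muscle genes show what such sequences look like. They are given in mm9 on the strand of the gene, 5′ to 3′, as up to 300 bases of the part of the WT peak upstream of the transcription start and outside annotated exons, and capitals mark E boxes, which are CAGCTG, or CAGGTG and its reverse complement CACCTG. The first 5 had a WT peak and no Tet2 KO peak. Rapsn encodes rapsyn, which clusters acetylcholine receptors (chr2:90875668-90875776, plus strand). Ckm encodes muscle creatine kinase (chr7:19996162-19996442, plus strand). Chrnd encodes the delta subunit of the acetylcholine receptor (chr1:89087047-89087226, plus strand). Myh1 encodes a fast myosin heavy chain (chr11:67012987-67013286, plus strand). Myog encodes myogenin (chr1:136186227-136186501, plus strand).
Rapsn: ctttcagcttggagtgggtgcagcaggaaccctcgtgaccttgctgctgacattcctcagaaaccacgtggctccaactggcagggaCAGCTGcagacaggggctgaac
Ckm: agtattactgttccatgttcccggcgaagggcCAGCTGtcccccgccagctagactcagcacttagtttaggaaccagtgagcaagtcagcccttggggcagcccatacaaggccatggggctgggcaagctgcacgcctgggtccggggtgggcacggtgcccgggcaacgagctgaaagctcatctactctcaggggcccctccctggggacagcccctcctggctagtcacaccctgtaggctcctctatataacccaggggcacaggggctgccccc
Chrnd: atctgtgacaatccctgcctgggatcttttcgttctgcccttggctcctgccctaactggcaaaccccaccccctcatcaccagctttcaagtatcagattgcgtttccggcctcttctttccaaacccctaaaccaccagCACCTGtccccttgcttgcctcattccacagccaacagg
Myh1: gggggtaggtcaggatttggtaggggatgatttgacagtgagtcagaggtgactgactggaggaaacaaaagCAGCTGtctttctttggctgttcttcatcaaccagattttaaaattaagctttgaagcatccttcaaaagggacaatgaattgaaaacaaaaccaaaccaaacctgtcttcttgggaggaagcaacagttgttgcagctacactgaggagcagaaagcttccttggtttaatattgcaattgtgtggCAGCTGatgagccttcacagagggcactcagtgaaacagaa
Myog: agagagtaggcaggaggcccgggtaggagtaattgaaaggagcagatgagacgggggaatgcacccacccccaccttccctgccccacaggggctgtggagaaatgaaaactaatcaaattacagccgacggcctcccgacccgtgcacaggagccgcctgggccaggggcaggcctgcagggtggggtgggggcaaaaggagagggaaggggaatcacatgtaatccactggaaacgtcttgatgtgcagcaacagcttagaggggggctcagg
The stretches held 2 CpGs at Rapsn, 3 at Chrnd, 8 at Ckm, 8 at Myog and 0 at Myh1. Neither E box form was in the Myog stretch, while Myh1 held 2 E boxes, which began 495 bp and 308 bp upstream of the start.

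The other 4 promoters had a peak in both lists. Lmod3 encodes a leiomodin that nucleates thin filaments (chr6:97202775-97202998, minus strand). Jsrp1 encodes a protein of the junctional sarcoplasmic reticulum (chr10:80276241-80276474, minus strand). Chrng encodes the gamma subunit of the fetal acetylcholine receptor (chr1:89102086-89102385, plus strand). Ankrd1 encodes a stress-responsive ankyrin repeat protein of muscle (chr19:36194425-36194724, minus strand).
Lmod3: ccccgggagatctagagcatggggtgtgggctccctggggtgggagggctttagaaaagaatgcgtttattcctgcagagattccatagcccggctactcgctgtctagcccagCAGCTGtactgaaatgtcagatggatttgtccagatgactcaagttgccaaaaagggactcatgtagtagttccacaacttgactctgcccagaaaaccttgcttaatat
Jsrp1: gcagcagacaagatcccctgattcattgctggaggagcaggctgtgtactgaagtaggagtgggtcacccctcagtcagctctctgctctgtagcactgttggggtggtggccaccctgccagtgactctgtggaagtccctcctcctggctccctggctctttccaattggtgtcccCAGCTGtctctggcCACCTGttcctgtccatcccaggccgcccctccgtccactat
Chrng: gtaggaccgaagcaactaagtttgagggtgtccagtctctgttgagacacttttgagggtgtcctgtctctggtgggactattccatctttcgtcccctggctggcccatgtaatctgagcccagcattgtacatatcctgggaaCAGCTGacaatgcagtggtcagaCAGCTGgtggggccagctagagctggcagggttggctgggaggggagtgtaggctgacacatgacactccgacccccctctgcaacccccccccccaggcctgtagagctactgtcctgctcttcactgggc
Ankrd1: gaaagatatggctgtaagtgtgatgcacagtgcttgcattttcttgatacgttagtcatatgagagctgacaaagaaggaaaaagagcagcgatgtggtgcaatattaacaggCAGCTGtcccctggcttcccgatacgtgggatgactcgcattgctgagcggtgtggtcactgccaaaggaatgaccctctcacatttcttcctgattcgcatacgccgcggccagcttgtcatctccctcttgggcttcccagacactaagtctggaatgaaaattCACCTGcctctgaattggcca
The number of CpGs was 4 at Lmod3, 2 at Jsrp1, 3 at Chrng and 10 at Ankrd1. Low CpG content is part of the rule that defines the class, so these numbers do not compare promoters with and without a Tet2 KO peak. Of the 9 stretches, 8 held at least 1 E box. Over whole peaks, an E box was in 32.2% of all CpG-poor WT peaks. Apart from Myog, the genes shown had the highest WT folds of the muscle lists described below, with and without a Tet2 KO peak. They therefore do not stand for the class.

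Peaks were counted at marker genes of the cells. Of 9 myoblast markers, 8 had a WT peak in the gene or the 10000 bp upstream (28 peaks in all) and 5 had a Tet2 KO peak (8 peaks). Megf10 alone held 11 of the 28. A WT peak was also at 2 of 5 endothelial markers (5 peaks), 3 of 5 haematopoietic markers (3 peaks) and 1 of 5 fibro-adipogenic markers (2 peaks). In the Tet2 KO list these had 0, 1 and 0 peaks. The share over all genes was not counted and gene length was not allowed for, so these counts do not test the identity of the cells. Tet2 itself had 3 WT and 0 Tet2 KO peaks, but peaks do not read the deletion. The lists also differed in background. The most frequent background was 0.649 fragments at a WT summit and 1.38 at a Tet2 KO summit, so background and genotype cannot be told apart.

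CpG-poor promoter peaks were fewer in the Tet2 KO list, by a factor between those of other promoters and of other peaks. The WT list held 5.27 times as many of them as the Tet2 KO list. This number depended on the cutoff, and was 8.38 and 19.5 where both lists were kept to a -log10 q of 5 and of 10. It was 0.866 where the WT list was reduced to its 3836 peaks with the highest -log10 q, the length of the Tet2 KO list, so WT then had the fewer. How far the ratio depends on the filtering of the deposited lists, described below, was not tested. With the lists as deposited, the ratio was 3.88 for single promoters of CpG-island type, 3.46 for bidirectional promoters and 8.55 for peaks outside protein-coding promoters. Of the 1607 WT peaks, 266 overlapped a Tet2 KO peak by at least 1 bp, or 16.6% (Wilson 95% interval 14.8 to 18.4). Over all WT peaks, 14.1% did so. The share was 25.3% at CpG-island-type promoters (24 to 26.7), 27.9% at bidirectional promoters (25 to 30.9) and 11% outside promoters (10.6 to 11.4). CpG-poor promoters therefore stood 8.74 percentage points below CpG-island-type promoters (difference -8.74, Newcombe 95% interval -11 to -6.42). They stood above the peaks outside promoters by 5.55 points (3.76 to 7.5). The gap to CpG-island-type promoters depended on the window in which bases were counted. With 200 bp in place of 500 bp around the centre it was -2.24 points.

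Nearly all Tet2 KO peaks at CpG-poor promoters were also in the WT list, 295 of 305 or 96.7% (94.1 to 98.2), against 96.8% of all Tet2 KO peaks. CpG-poor promoters made up 25.1% of the 6408 WT promoter peaks (24 to 26.2) and 19.4% of the 1571 Tet2 KO promoter peaks (17.5 to 21.4). The difference was -5.66 points. Its Newcombe interval (-7.83 to -3.38) treats the lists as independent, although 295 of the 305 Tet2 KO peaks overlap WT peaks. The interval is therefore no test between genotypes. Of all peaks the share went the other way, with 6.23% in WT (5.95 to 6.54) and 7.95% in Tet2 KO (7.14 to 8.85). Of promoter peaks the difference was -0.879 points with the 200 bp window, and -1.96 points when the WT list was reduced to its 3836 peaks with the highest -log10 q. In that reduced WT list 264 peaks lay at CpG-poor promoters, against the 305 of the Tet2 KO list.

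Among CpG-poor promoters the overlap with the Tet2 KO list rose with GC content. It was 5.62% of the 89 WT peaks under 45% GC (2.42 to 12.5), 8.63% of 255 at 45 to 50%, and 15.5% of 632 at 50 to 55%. Above 55% GC, where peaks belong to the class by their CpG ratio alone, it was 18.5% of 378, then 26.1% of 203, and 36.2% of the 47 peaks at 65 to 70% (24 to 50.5). Peaks outside protein-coding promoters followed a like course up to 60% GC, at 6.07%, 9.82%, 13.1% and 17.8% in the same bins. The intervals of the 2 classes overlapped in each of these 4 bins. The median fold enrichment of the WT peaks at CpG-poor promoters moved little with GC, from 7.48 in the lowest bin to 7.59 in the highest, with 8.04 at 60 to 65%.

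**Figure D1:**
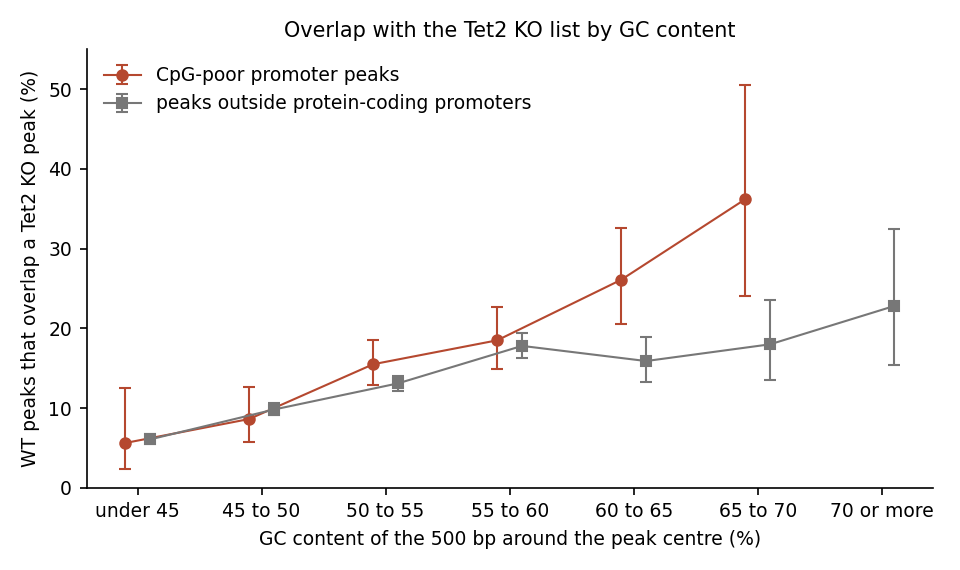
Percent of WT peaks with an overlapping Tet2 KO peak (y axis) against the GC content of the 500 bp around the peak centre (percent, x axis), for CpG-poor promoters (circles) and for peaks outside protein-coding promoters (squares). Bars are Wilson 95% intervals, and the CpG-poor promoters rise from 5.62% to 36.2% while the other peaks lie between 6.07% and 22.8%.

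With the number of CpGs the overlap rose and then levelled off. The overlap was 8.0% of the 100 WT peaks with under 5 CpGs in 500 bp (4.11 to 15), 10.9% of the 275 with 5 to 9, 21.6% of the 602 with 20 to 29 (18.5 to 25.1), and 18.2% of the 121 with 30 to 39 (12.3 to 26). By CpG ratio it was 8.81% of 193 under 0.2, 19.8% of 642 at 0.4 to 0.6 and 20.1% of 234 at 0.6 to 0.8. It was 12.9% of 116 at 0.8 to 1 (8.0 to 20.2) and 4.35% of the 23 above (0.772 to 21.0). Peaks that met both criteria, low GC and a low CpG ratio, had 10 CpGs at the median and overlapped a Tet2 KO peak in 10.3% of 603 cases (8.10 to 13.0). Those with a low CpG ratio but at least 55% GC did so in 22.3% of 631 (19.3 to 25.8). Those with low GC alone had 26 CpGs at the median and did so in 16.9% of 373 (13.4 to 21.0). The WT list held 8.87 times as many peaks as the Tet2 KO list where both criteria were met, 3.85 times as many with the CpG ratio alone and 5.11 times as many with GC alone. Nothing stepped at the limits of the rule. Of peaks with 53 to 55% GC and a CpG ratio of at least 0.6, 19.3% overlapped a Tet2 KO peak, and of those just outside at 55 to 57% GC, 19%. Just inside and just outside the limit of the CpG ratio, the shares were 25% and 27.9%.

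The strength of the WT peak went with a larger share of overlap. Strength is given as fold enrichment, which is the fragments at the summit plus 1 over the background fragments plus 1 in the same library. At CpG-poor promoters it ran from 1.56 to 24.6 with a median of 7.80, against 8.29 at CpG-island-type promoters. The lowest value was at mt-Nd1, in the mitochondrial genome. The highest was at Gm10222, in sequence that mostly occurs in the mitochondrial genome too. The CpG-poor peaks were divided by fold into 5 groups of 317 to 325. The overlap was 2.52% in the weakest group (1.28 to 4.90), then 4.04%, 7.38% and 22.8%, and 45.8% in the strongest (40.5 to 51.3). CpG-island-type promoters within the same limits of fold gave 2.05%, 6.89%, 13.3%, 26.8% and 63.1% (60 to 66.1 in the last). The intervals were apart in the third and the strongest groups only. With the CpG-island-type peaks weighted to the fold of the CpG-poor peaks in 10 groups, their share was 22.0%, and the difference -5.49 points.

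**Figure D2:**
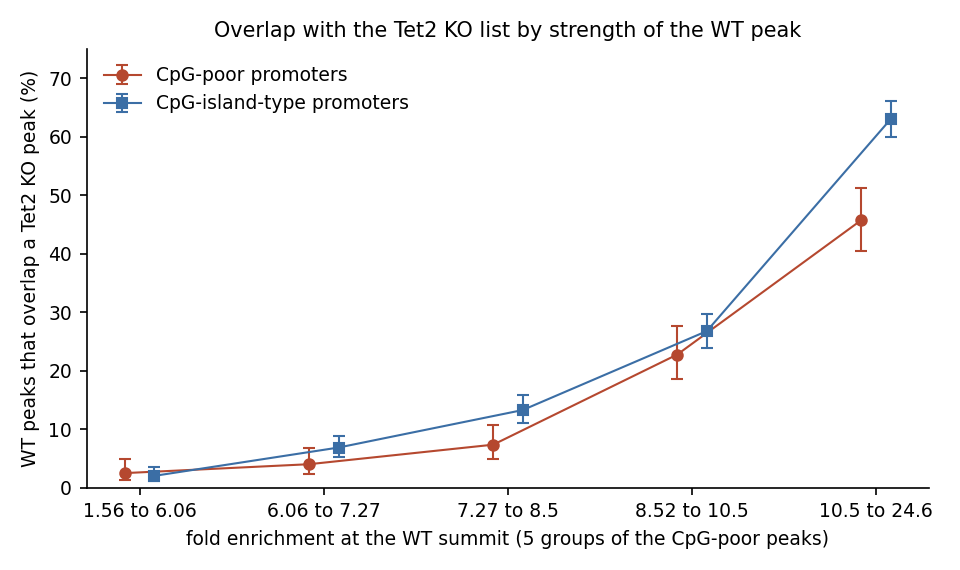
Percent of WT peaks with an overlapping Tet2 KO peak (y axis) in 5 groups of fold enrichment at the WT summit (x axis), for CpG-poor promoters (circles) and CpG-island-type promoters (squares). Bars are Wilson 95% intervals, and in the strongest group the CpG-poor promoters reach 45.8% and the CpG-island-type promoters 63.1%.

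Where both lists had a peak, the Tet2 KO fold was the lower for 261 of 266 WT peaks at CpG-poor promoters. The median fold was 10.9 in WT and 5.69 in Tet2 KO, and the median ratio of Tet2 KO to WT was 0.532 (quartiles 0.462 and 0.642). The ratio was 0.541 at CpG-island-type promoters, 0.542 at bidirectional promoters and 0.525 outside promoters, so shared peaks of all 4 classes stood lower by a like factor. Fragments at the summit had a median of 27.5 in WT and 15 in Tet2 KO, and 63.5% of the summits lay within 50 bp of each other. The 5 exceptions were a pair of WT peaks at Gm10222 that overlap the same Tet2 KO peak, and WT peaks at Gm10807, Gapdh and mt-Nd1. They are named because they are the exceptions, after their values were seen. The gene mt-Nd1 lies in the mitochondrial genome, and 83.8% and 92.5% of the 31-base words in the WT peaks of Gm10222 occur in the mitochondrial genome too. The exception at Gapdh, which encodes a glycolytic enzyme, had a fold of 4.32 in WT and 4.6 in Tet2 KO. Another shared Gapdh peak, centred upstream of the start, was lower in Tet2 KO, with a fold of 7.04 in WT and 4.03 in Tet2 KO.

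**Figure D3:**
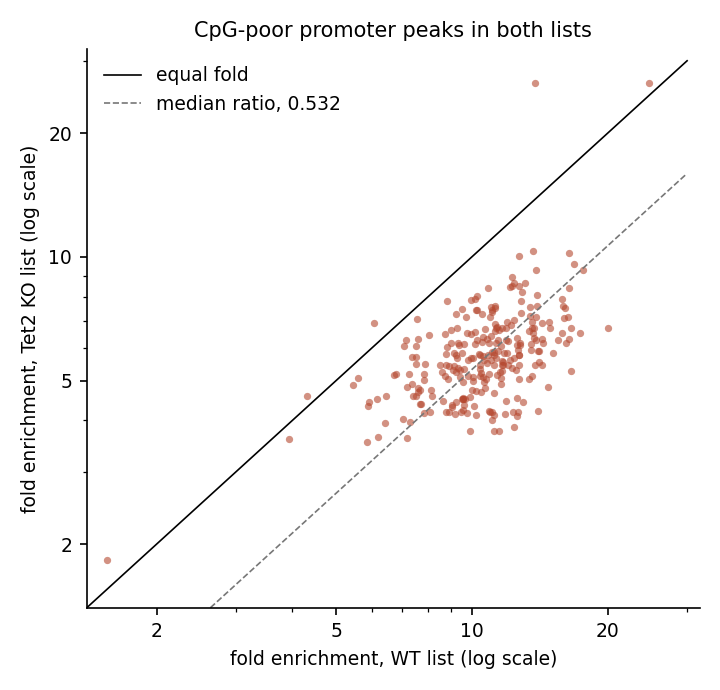
Fold enrichment in the WT list (x axis, log scale) and in the Tet2 KO list (y axis, log scale) of the 266 WT CpG-poor promoter peaks that overlap a Tet2 KO peak. The solid line marks equal fold and the dashed line the median ratio of 0.532, and 261 points lie below the solid line.

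A WT peak without a Tet2 KO peak does not show a closed promoter, as both lists stop at a cutoff. Peak numbers are also skipped, 9707 of 35482 in WT and 4403 of 8239 in Tet2 KO, by a filter that is not given. A Tet2 KO peak may therefore have been called and then left out, which was not tested. The 1341 WT peaks without a partner had a median fold of 7.41 and 15 fragments, against 10.9 and 27.5 for the 266 with one. At their own WT fold and the genome-wide Tet2 KO background, 1341 of the 1341 would have reached the smallest -log10 p of the Tet2 KO list, 4.01. This count could hardly come out otherwise, as Tet2 KO peaks at that background were listed from a fold of 3.36. At 0.532 of their fold, 756 or 56.4% would have reached it. That factor comes only from peaks that passed the cutoff in both lists, so it may be too high for peaks without a partner. The signal of these promoters in the Tet2 KO library below its cutoff was not analysed here.

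CpG-poor promoter peaks lay farther from the start than those of CpG islands. The class was set by the bases around the peak centre, so the distance from the start is not independent of the rule. Read around the start instead, 1314 WT peaks were CpG-poor, and their distances were not counted. With the rule as given, the median centre was 87 bp upstream in WT (quartiles 258 and 28 bp upstream), against 69 bp at CpG-island-type promoters (133 and 19 bp). Centres from 1000 to 500 bp upstream made up 15.1% of the CpG-poor peaks and 2.95% of the CpG-island-type peaks. The overlap with the Tet2 KO list was 13.2% there (9.52 to 18.1), 22.4% from 500 to 200 bp upstream (17.4 to 28.3) and 16.1% nearer to the start or downstream (14.1 to 18.4). In CpG-island-type promoters the middle stretch was highest too, with 25.9%, 36.7% and 24%. WT peaks were a median of 206 bp wide at CpG-poor promoters and 230 bp at CpG-island-type promoters.

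Most CpG-poor starts had no peak in either list. Of 24240 protein-coding starts that were CpG-poor and not bidirectional, 2140 had a WT peak in their window, or 8.83% (8.48 to 9.19), and 1.46% had a Tet2 KO peak (1.32 to 1.62). At CpG-island-type starts the shares were 44.5% (43.8 to 45.3) and 11.9% (11.4 to 12.4). The starts of 1 gene share peaks, so the count was repeated over genes with starts of 1 kind. Of 11057 genes whose starts were all CpG-poor, 8.2% had a WT peak and 1.37% a Tet2 KO peak. Of 5839 genes with CpG-island-type starts alone, 45.8% and 12.2% did. Of the 1513 genes with a WT peak at a CpG-poor promoter, 193 had another at a CpG-island-type or bidirectional promoter.

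Motifs were counted on both strands in the 200 bp around the summit. CpG-poor promoters fell between CpG-island-type promoters and the whole WT list in the E box and the AP-1 site. CAGCTG, the E box form with a GC core, was in 23.0% of the 1607 WT peaks (21.0 to 25.1), in 10.8% of CpG-island-type peaks and in 33.2% of all WT peaks. TGANTCA, the AP-1 site, was in 15.8% (14.1 to 17.7), 2.98% and 34.1%. In the 200 bp of CpG-poor starts without a peak, counted from 150 bp upstream to 50 bp downstream, CAGCTG was in 13.4% and TGANTCA in 6.52%. The E box form CAGGTG went the other way, with 9.40% of the CpG-poor WT peaks and 17.1% of these starts. CCAAT and GGGCGG were each more frequent in the CpG-poor peaks than in the whole WT list. In the 200 bp of CpG-poor starts without a peak, they were in 26.6% and 12.6%. CCAAT, which NF-Y binds, was in 42.8% of the CpG-poor peaks (40.4 to 45.2), close to the 44.1% of CpG-island-type promoters, and in 28.1% of all WT peaks. The GC box GGGCGG was in 36.6% (34.3 to 39.0), against 71.9% at CpG-island-type promoters and 22.3% of all WT peaks. This motif holds a CpG and no A or T, so its share is not independent of the rule that defines the classes.

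TATAAA, the core of the TATA box, was in 4.98% of the CpG-poor peaks, 5.94% of all WT peaks and 12.1% of CpG-poor starts without a peak. Placed from 40 to 20 bp upstream of the start, it was at 1.48% of the 1556 starts with a CpG-poor WT peak (0.987 to 2.21), at 2.42% of the CpG-poor starts without one (2.23 to 2.63) and at 0.571% of starts with a CpG-island-type peak. The other motifs were the Runx-type TGTGGT in 15.6%, the TEAD-type GGAATG in 13.0% and the Ets-type CCGGAAG in 8.65% of the CpG-poor peaks. A pattern labelled MEF2-type was in 3.05% of them. Its sequence is not printed here, and whether its matches are MEF2 sites was not tested.

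**Figure D4:**
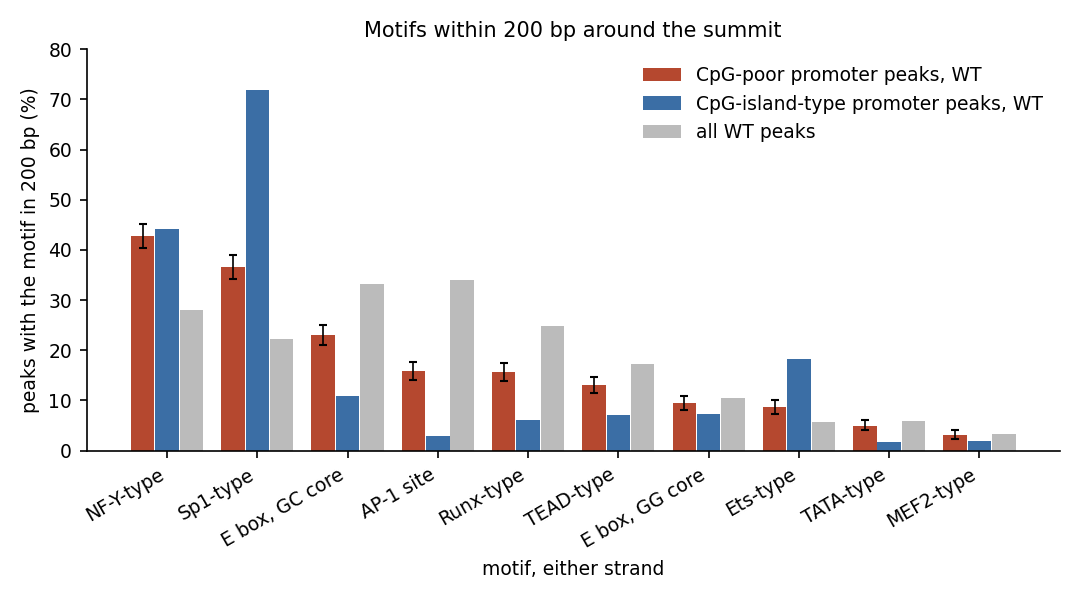
Share of peaks with a motif on either strand in the 200 bp around the summit (percent, y axis) for 10 motifs (x axis), in WT CpG-poor promoter peaks, WT CpG-island-type promoter peaks and all WT peaks. Bars start at 0 and the error bars of the CpG-poor peaks are Wilson 95% intervals. The E box with a GC core lies at 23.0%, 10.8% and 33.2%, and the Sp1-type GC box at 36.6%, 71.9% and 22.3%. The GC box holds a CpG, so its share is not independent of the rule that defines the classes.

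Overlap with the Tet2 KO list was close with and without CAGCTG or an AP-1 site in the 200 bp, and higher with a CCAAT box or a GC box. With CAGCTG in the 200 bp, 16% of 369 had a Tet2 KO peak (12.6 to 20.1), and without it 16.7% of 1238 (14.7 to 18.9). TGANTCA gave 15.7% of 254 (11.8 to 20.7) against 16.7% of 1353 (14.8 to 18.8). CCAAT gave 20.6% of 688 (17.8 to 23.8) against 13.5% of 919 (11.4 to 15.9), and the median fold of these WT peaks was 8.52 with and 7.37 without it. GGGCGG gave 20.4% of 588 (17.3 to 23.9) against 14.3% of 1019 (12.3 to 16.6), with a fold of 8.0 and 7.69. The parts of the fold and of GC content in these differences were not tested. The pattern labelled MEF2-type gave 26.5% of 49 (16.2 to 40.3) against 16.2% of 1558 (14.5 to 18.2), with intervals that overlapped. Those shares describe the pattern, whose matches were not tested as MEF2 sites. Counted over whole peaks, CAGCTG gave 20.8% of 403 against 15.1% of 1204, and TGANTCA 20.7% of 266 against 15.7% of 1341. Over whole peaks an E box of either form was in 32.2% of the CpG-poor WT peaks, in 40.2% of those with a Tet2 KO peak and in 30.6% of those without. The former were also wider, with a median of 332 bp against 191 bp. The nearest CpG lay a median of 9 bp from the E box, 7 bp where a Tet2 KO peak was present and 9 bp where it was not. A CpG was within 10 bp in 59.8% of 107 such peaks with a Tet2 KO peak and 56.2% of 411 without. WT peaks with a Tet2 KO peak also held more CpGs in 500 bp, at a median of 21 against 17. The part of CpG number in the distance was not tested.

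Promoter peaks at muscle genes were mostly CpG-poor. Over 4 lists of muscle genes, with 120 genes in the annotation, 40 WT peaks at 35 genes lay at CpG-poor promoters. They made up 74.1% of the single promoter peaks of these genes, against 29.0% over all genes. Of the 40 peaks, 8 overlapped a Tet2 KO peak, or 20% (10.5 to 34.8), which holds the 16.6% of all CpG-poor promoters. They had a median of 9.5 CpGs in 500 bp (range 4 to 32), against 18 in all CpG-poor WT peaks. An E box of either form was in 32 of the 40 (80%). All 8 with a Tet2 KO peak held one, and so did 24 of the 32 without (75%). The fold of the 8 ran from 7.39 to 12.7 and that of the 32 from 4.13 to 13.4. The ranges overlapped, but the 8 were the stronger at the median, with a fold of 9.38 against 7.17 and 28 fragments against 16.

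**Figure D5:**
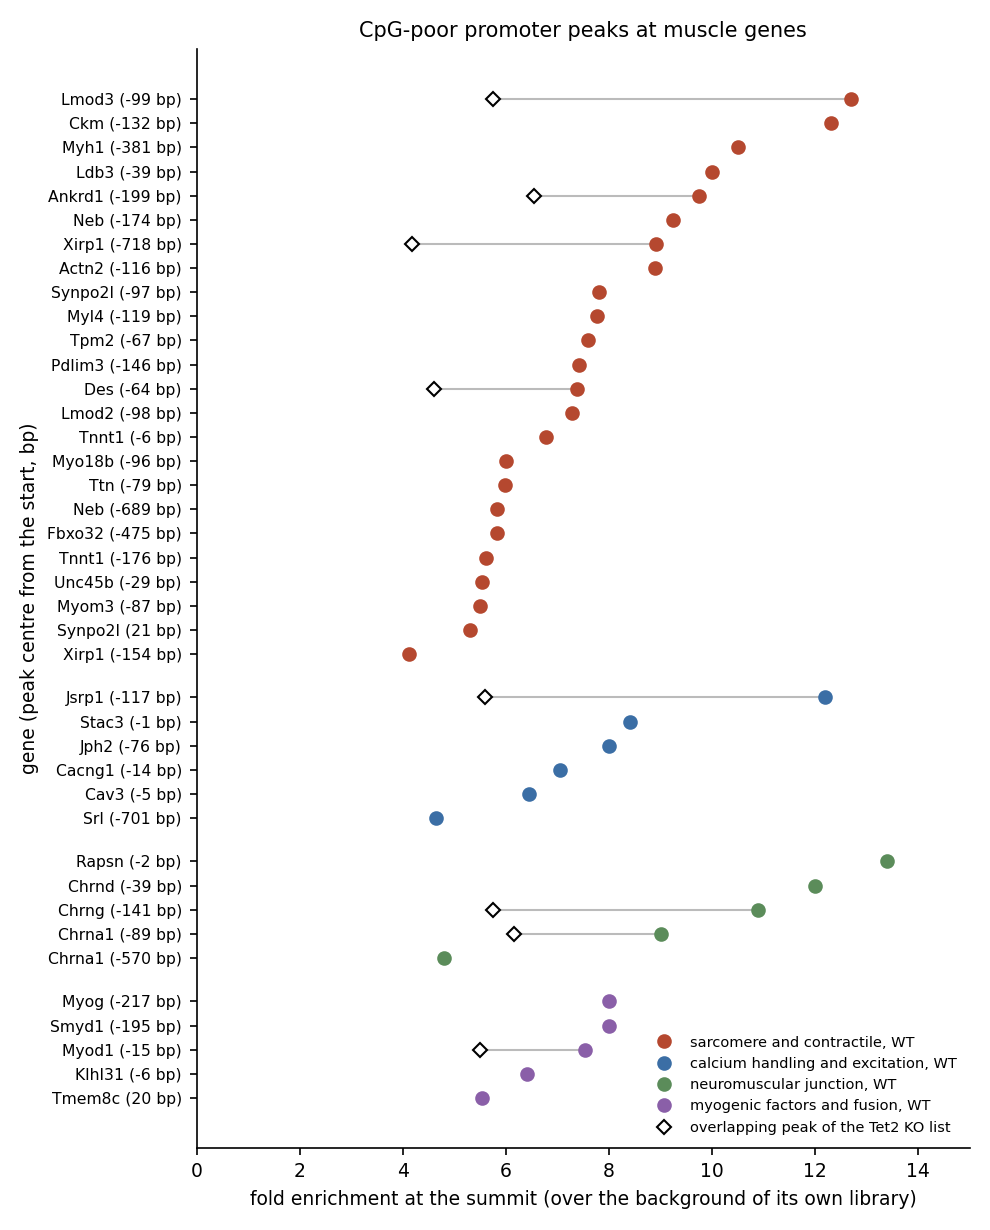
Fold enrichment at the summit (x axis, from 0) of the 40 WT CpG-poor promoter peaks at genes of 4 muscle lists, 1 row a peak with the distance of its centre from the start in bp (y axis). Filled circles are WT peaks, coloured by list, and open diamonds the overlapping peaks of the Tet2 KO list. Diamonds are present in 8 rows, and each lies to the left of its circle.

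The sarcomere and contractile list had 24 WT peaks at 20 of its 56 genes. In the WT list 3 peaks lay at its CpG-island-type promoters. Peaks of both lists were at Lmod3, with a fold of 12.7 in WT and 5.76 in Tet2 KO, at Ankrd1 (9.74 and 6.54), at Xirp1 (8.92 and 4.18) and at Des (7.39 and 4.6). Des encodes the intermediate filament desmin and Xirp1 an actin-binding protein. The strongest peaks without a Tet2 KO peak were at Ckm (fold 12.3, 29 fragments) and Myh1 (10.5, 18 fragments). Ldb3, a Z-disc protein, followed with 10. Neb had peaks of 9.24 and 5.83, and the alpha-actinin gene Actn2 one of 8.90. Neb encodes nebulin, the ruler of the thin filament. The lowest folds were 4.13 at a second Xirp1 peak, 5.30 at a Synpo2l peak and 5.50 at Myom3, an M-band protein. Ttn, which encodes titin, had 5.99, and the slow troponin T gene Tnnt1 had 6.78 and 5.62. Strong and weak WT peaks were both among those without a Tet2 KO peak.

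The calcium handling and excitation list had 6 WT peaks at 6 of 24 genes, of which Jsrp1 had a Tet2 KO peak, with a fold of 12.2 in WT and 5.60 in Tet2 KO. Stac3, an adaptor of excitation-contraction coupling, had 8.41 in WT alone. Jph2, a junctophilin that tethers the reticulum to the membrane, had 8.0. Cacng1, the gamma subunit of the calcium channel of muscle, had 7.05, Cav3, the caveolin of muscle, 6.44, and Srl, which encodes sarcalumenin, 4.64.

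The neuromuscular junction list had 5 WT peaks at 4 of 11 genes, with 2 in both lists. Rapsn had the highest fold of the 4 muscle lists, 13.4 with 27 fragments, and no Tet2 KO peak. Chrnd had 12 with 29 fragments and no Tet2 KO peak. Its neighbour Chrng had 10.9 in WT and 5.76 in Tet2 KO, with 36 and 19 fragments. Chrna1, the alpha subunit, had 9.01 in WT and 6.16 in Tet2 KO, and a weaker peak farther upstream with 4.8 in WT alone.

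Myogenic factors and fusion genes had more CpG-island-type peaks (9 in WT) than CpG-poor ones (5 in WT). Myod1, the factor that commits cells to muscle, had a fold of 7.53 with 39 fragments in WT and 5.50 with 21 fragments in Tet2 KO. The Myog peak lay from 354 to 80 bp upstream of the start, with a fold of 8.01 and 22 fragments over a background of 1.87, and the Tet2 KO list had no peak there. Its fold was above 53.5% of the CpG-poor WT peaks. Smyd1, a methyltransferase of myofibril assembly, had 8.0, Klhl31 had 6.41, and Tmem8c, which encodes the fusion protein myomaker, had 5.54. None of these 3 had a Tet2 KO peak.

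The strongest CpG-poor promoters were outside the muscle lists. Among WT peaks with a Tet2 KO partner, Gm10222 had the highest fold (24.6), in sequence that mostly occurs in the mitochondrial genome too. Others were at Fgd4 (20 in WT, 6.71 in Tet2 KO) and Cyb5 (17.4 and 6.52). Fgd4 encodes an exchange factor for Cdc42 and Cyb5 a cytochrome. Gm5444 had 16.9 and 9.63, Mcm3, a subunit of the replicative helicase, 16.6 and 6.71, and Acy1, an aminoacylase, 16.6 and 5.29. Chchd3, a protein of mitochondrial cristae, had 16.4 and 6.31. Arrdc4, an arrestin-like protein, had 16.4 and 10.2, and 8430410K20Rik had 16.4 and 8.39.

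The strongest WT peaks without a Tet2 KO peak had folds from 14.7 to 16.8. They were at Manea (16.8), an enzyme of N-glycan trimming, Gm15401 (16.4), Phkg2 (16), a catalytic subunit of phosphorylase kinase, and Mcpt8 (15.9), a protease of basophils. Msh3 (15.6), a mismatch repair protein, Pafah2 (15.6), Ints4 (15.5), a subunit of the Integrator complex, and Enox2 (15.3) came next. The last of the 10 were Kbtbd5 (14.8), the muscle gene of thin filament stability also known as Klhl40, and Akr1e1 (14.7). Kbtbd5 had 43 fragments in WT, the most of these 10, and is in none of the muscle lists.

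In the Tet2 KO list 10 CpG-poor promoter peaks had no WT peak. Their folds ran from 3.32 at Gm10715 to 5.70 at 4931408C20Rik, where a second peak had 4.63. Gm10720 had 5.42 and Gm10722 had 5.14. Abi1, a regulator of actin assembly, had 4.77 with 11 fragments, and Morn4 had 4.73 with 12 fragments. The others were Gm10718 (4.54), Dux (4.45) and Xiap (4.20). In 5 of the 10, at least 50% of the 31-base words occur more than once in mm9, from 53.6% at Dux to 100% at Gm10720. This was so in 13 of the 1607 WT peaks (0.809%). At Abi1, Morn4 and Xiap the share was 0.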

How the data were processed

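ATAC-seq libraries of 2 WT and 2 Tet2 KO samples were read as 150 bp pairs. Per the labels and methods, the authors shortened reads to 36 bp and placed them on mm9 by Bowtie2. Alignments under a mapping quality of 30 and Picard duplicates were dropped, and MACS2 called the peaks. Each genotype had 1 deposited list, tied to it by its name and its total; its replicate is not known. The peak numbers skip 9707 of 35482 in WT and 4403 of 8239 in Tet2 KO, which is the larger part in Tet2 KO. The lists were therefore filtered in a way not given in the sources used here. The deposited score is 10 times -log10 q in WT (all but 1 peak) and 10 times -log10 p in Tet2 KO. The deposited fold is a ratio of summit to local background with a pseudocount of 1. The deposited -log10 p and -log10 q are those at the summit, and the last deposited column, another unit, counts the bp between peak start and summit. A methods cutoff of q 0.01 is stated, but 55 Tet2 KO peaks, 4 of them at CpG-poor promoters, have a -log10 q under 2.

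Fragments were solved from the ratio and -log10 p with the Poisson formula of MACS2 (tolerance 0.001). Total read numbers are unknown. Starts came from GENCODE M1 and bases from NCBIM37, which is mm9. A peak went to the nearest start whose window held its centre. Calculations used Python 3.11.15, numpy 2.4.6, pandas 2.3.3 and scipy 1.17.1, and were tested on simulated data. Shares have Wilson and differences Newcombe 95% intervals. Members and gene lists were chosen with earlier results of these data known. Named are genes of the lists with a CpG-poor promoter peak, the 10 strongest WT peaks with and without a Tet2 KO peak, and up to 5 Tet2 KO peaks without a WT peak; the other Tet2 KO peaks without a WT peak, and shared peaks with a higher Tet2 KO fold, were added after their values were seen. Some genes that this rule names are not reported here. Other thresholds, windows, composition limits and overlap rules were tried. Columns of per-sample values not used numbered 0.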

Additional observations from a re-analysis of the deposited data

How the results depend on the processing

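The WT to Tet2 KO number of CpG-poor peaks turned round in 1 alternative, from 5.27 to 0.866, when the WT list was reduced to the length of the Tet2 KO list. CpG-poor promoters stayed below CpG-island-type promoters in 17 of 17 alternatives unweighted and in 19 of 19 weighted for strength. Those counts take the sign alone, without an interval, and the alternatives are drawn from the same lists. Of 175 values, 118 stayed close, 56 moved and 1 reversed. Where both lists were kept to a -log10 q of 5 or more, 178 Tet2 KO peaks remained, the WT to Tet2 KO ratio was 8.38, the overlap of WT peaks 10.8% and the difference -5.86 points. At 10 or more, 878 WT and 45 Tet2 KO peaks gave a ratio of 19.5, an overlap of 4.67% and differences of -1.84 points unweighted and -1.15 weighted. With a fold of at least 5 the overlaps were 12.7% of WT and 98.6% of Tet2 KO peaks. GC under 50% or a CpG ratio under 0.5 left 925 WT and 141 Tet2 KO peaks, with 13.6% overlap, -11.0 points and 6.05% of starts with a peak. Both criteria together left 603 and 68 peaks, with a ratio of 8.87, 10.3% overlap, -14.0 points (-9.69 weighted) and 4.52% of starts. Composition in 200 bp gave 21.2% overlap, -2.24 points (-2.53 weighted) and a Tet2 KO minus WT CpG-poor share of -0.879 points. The 3836 WT peaks of highest -log10 q held 264 members and gave overlaps of 59.5% of WT and 56.7% of Tet2 KO peaks, differences of -13.9 and -15.3 points, and -1.96 points in the CpG-poor share. Requiring 50% of both peaks to be shared gave 12.1% of WT and 65.9% of Tet2 KO peaks. Without peaks of 50% or more repeated words, an alternative chosen after seeing the data, 98.3% of Tet2 KO peaks had a WT peak. Starts with a peak were 7.40% with a window of 500 bp upstream and 11.1% with 1000 bp on either side. In 100 bp, CAGCTG was in 14.4%, TGANTCA in 10.8% and CCAAT in 29.9% of peaks, as a shorter window holds fewer bases. Unless that construction shows it, the cause was not tested. The calculation with 0.532 of the WT fold was also chosen after seeing the data. Peaks that would reach the median Tet2 KO -log10 p numbered 973 of 1341.

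No paired analysis was possible because the peak lists, 1 for WT and 1 for Tet2 KO, carry no replicate number. Leaving out a replicate was likewise not possible. The lists give no read totals, a peak absent from a list is not evidence of closed chromatin, and the groups differ in background. Spread between animals was not measured.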

Other observations

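Other gene groups at CpG-poor promoters were seen in the WT list with few peaks in Tet2 KO. Cytokine and chemokine genes had 5 WT peaks at 4 of 31 genes and 0 in Tet2 KO (0 of 5, interval up to 43.4%). They were at Cxcl10 (fold 8.64), Ccl2 (8.06), Ccl7 (6.45) and Clcf1 (5.19 and 4.73). Cxcl10, Ccl2 and Ccl7 encode chemokines. Genes of the matrix, its proteases and their inhibitors had 12 WT peaks at 11 of 51 genes, and Lgals1, which encodes galectin-1, alone had a Tet2 KO peak, with a fold of 5.87 in WT and 3.55 in Tet2 KO. The others included Plat (8.82), the tissue plasminogen activator, Timp1 (7.72 and 6.23), an inhibitor of matrix proteases, Col6a3 (7.69), a collagen VI chain, Spp1 (7.61), which encodes osteopontin, and Fbn1 (7.28), which encodes fibrillin-1. Integrins and surface receptors had 6 WT peaks at 6 of 39 genes, and 0 of the 6 overlapped a Tet2 KO peak (interval up to 39.0%). They were at Itgb6 (8.91), Itgb8 (8.59), Cd44 (8.40), Il1r1 (8.23), Tnfrsf11b (6.67) and Cd82 (5.17). At Cd82 the Tet2 KO list had a CpG-poor peak of 4.77 that overlapped another WT peak of 6.20. With so few peaks, these shares and the 16.6% of all CpG-poor promoters cannot be told apart where the interval holds it, as it does in each of the 3 groups.

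Lists that serve as references were nearly empty. Of 1440 olfactory and vomeronasal receptor genes, 1 had a CpG-poor promoter peak, Olfr530, with a fold of 14.5 in WT and its centre at -806 bp from the start. Of 100 keratin genes 1 had such a peak, Krt80, with a pair of WT peaks of 7.52 and 5.96. Over all protein-coding genes, 1513 of 22232 had such a WT peak. The 10 genes that the study names as upregulated had 0, which at that share does not set so few genes apart. They had 2 WT peaks at CpG-island-type promoters, 1 of them with a Tet2 KO peak. On chromosome X lay 68 of the 1607 WT peaks.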
